A study of Mus musculus with 2 samples.

Results

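The genes described here are 10 genes that mark or serve red pulp macrophages (RPMs), taken by symbol from the 26124 genes of the count tables: the transcription factor gene Spic, the adhesion molecule gene Vcam1, the scavenger receptor genes Cd163, Marco and Mrc1, the engulfment receptor genes Timd4, Axl and Mertk, the gene of the secreted protein Cd5l, and Adgre1, which encodes F4/80. The study had asked how heme released from damaged erythrocytes shapes myeloid cells in hemolytic anemia, and spleen cells of a sickle cell disease (SCD) mouse and of a control were compared by single-cell RNA sequencing (scRNA-seq). Each group was 1 library from 1 mouse, aged 12 to 16 weeks and given no treatment. The wild-type control was homozygous for the mouse alpha-globin deletion Hbatm1Paz, heterozygous for the mouse beta-globin deletion Hbbtm1Tow and hemizygous for the human globin transgene Tg(HBA-HBBs)41Paz, and does not sickle. The SCD mouse (Berkeley model) was homozygous for all of these alleles and sickles. By these labels both animals carried the alpha-globin deletion and the human transgene, and the control is not a mouse with only its own globins. The counts match the labels in part. In erythroid precursor-like cells Hbb-bs, a mouse beta-globin gene, was at 283532 counts per 1000000 UMIs (CPM) in wild-type and 2766 in SCD. Hba-a1, a mouse alpha-globin gene, was at 109931 CPM in wild-type and 111626 in SCD, and Hba-a2 at 4767 and 4663, so UMIs were assigned to alpha-globin genes in both libraries despite the labelled deletion. Where these UMIs came from was not tested. After lysis of erythrocytes, both spleen suspensions had been enriched for dendritic cells (DCs) by removing other cells with magnetic beads, so the macrophages measured are those that this step left, and their share is not that of the whole spleen.

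RPMs clear aged and damaged erythrocytes from the blood in the spleen, break down their heme and return the iron to the circulation. Spi-C, the ETS family protein that Spic encodes, is required for their development, is induced by heme in monocytes, and drives Vcam1. CD163 takes up complexes of hemoglobin and haptoglobin, MARCO and the mannose receptor encoded by Mrc1 bind microbial and other polyanionic or glycosylated ligands, TIM-4 (Timd4) binds phosphatidylserine on dying cells, AXL and MERTK bind it through the bridging ligands GAS6 and protein S, and CD5L is secreted by tissue macrophages.

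All 10 genes were found in the files, and their places in the mouse genome (GRCm38, GENCODE M21) were Spic chr10:88674772-88685015 and Vcam1 chr3:116109949-116129688 on the minus strand, Cd163 chr6:124304656-124330527 on the plus strand, Marco chr1:120474538-120505024 on the minus strand, Mrc1 chr2:14229392-14332057, Timd4 chr11:46810800-46844332 and Cd5l chr3:87357881-87371073 on the plus strand, Axl chr7:25757273-25788705 on the minus strand, and Mertk chr2:128698956-128802894 and Adgre1 chr17:57358691-57483527 on the plus strand. Gm43109 overlaps Vcam1 on the opposite strand, Gm14011 does so for Mertk, and Mir511 and Gm23172 lie inside Mrc1 and Mertk on the same strand. RefSeq promoters (GRCm38.p6, 250 bases before to 50 after the start site) were given for 8 of the 10 genes, and for neither Vcam1 nor Adgre1. Those of Spic, the regulator, and of the 3 genes whose level differed past 2-fold between the libraries are shown, 5′ to 3′ on the gene's strand, with each ETS core GGAA (or TTCC, its reverse complement) in capitals. They cover chr10:88682974-88683273 (Spic, minus strand), chr1:120504975-120505274 (Marco, minus strand), chr3:87357631-87357930 (Cd5l, plus strand) and chr6:124304401-124304700 (Cd163, plus strand). The RefSeq start of Spic lies inside the GENCODE gene.
Spic: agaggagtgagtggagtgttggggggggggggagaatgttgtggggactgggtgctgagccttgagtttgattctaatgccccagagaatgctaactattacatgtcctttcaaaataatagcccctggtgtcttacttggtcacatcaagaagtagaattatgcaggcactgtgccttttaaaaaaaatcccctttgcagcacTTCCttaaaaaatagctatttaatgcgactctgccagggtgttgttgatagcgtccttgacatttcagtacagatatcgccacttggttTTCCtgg
Marco: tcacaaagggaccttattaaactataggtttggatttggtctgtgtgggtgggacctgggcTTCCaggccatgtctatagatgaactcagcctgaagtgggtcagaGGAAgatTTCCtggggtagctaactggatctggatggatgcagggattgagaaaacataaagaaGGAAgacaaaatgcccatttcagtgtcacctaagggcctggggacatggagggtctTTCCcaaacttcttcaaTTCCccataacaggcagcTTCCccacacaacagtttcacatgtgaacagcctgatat
Cd5l: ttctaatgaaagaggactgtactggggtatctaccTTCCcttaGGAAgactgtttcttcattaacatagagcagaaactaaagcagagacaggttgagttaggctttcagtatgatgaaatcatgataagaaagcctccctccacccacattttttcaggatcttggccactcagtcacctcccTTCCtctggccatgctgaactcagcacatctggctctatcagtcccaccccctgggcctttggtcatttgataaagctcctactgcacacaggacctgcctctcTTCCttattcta
Cd163: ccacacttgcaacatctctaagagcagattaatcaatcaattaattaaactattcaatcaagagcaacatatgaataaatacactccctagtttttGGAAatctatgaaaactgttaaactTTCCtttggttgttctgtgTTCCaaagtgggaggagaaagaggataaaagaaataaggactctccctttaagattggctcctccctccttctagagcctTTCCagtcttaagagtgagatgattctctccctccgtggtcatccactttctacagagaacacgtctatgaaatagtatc

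Read on both strands, the ETS core occurred 2 times in the promoter of Spic, 7 times in that of Marco and 4 times each in those of Cd5l and Cd163. It is a short motif that 96.0% of all 32851 promoters of this length hold, with a median of 3 matches. None of the 8 promoters held the longer PU.1 or Spi-C site GAGGAAGT (in 3.20% of all promoters), the antioxidant response element core TGACNNNGC (12.4%) or the BACH or AP-1 site TGANTCA (7.81%), each searched on both strands. These counts describe letters in a window and no binding.

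The wild-type library held 97880318 unique molecular identifiers (UMIs, the count of captured transcripts) in 10845 cells, and the SCD library 189688217 UMIs in 13447 cells. The 2 libraries shared 88 cell barcodes. Limits of 500 to 5000 detected genes and on mitochondrial and ribosomal content kept 9423 wild-type and 10635 SCD cells. Clustering without the 10 genes gave 23 clusters, and 1 of them was RPM-like, with 287 wild-type cells (3.05% of the kept cells, exact 95% binomial interval 2.71 to 3.41) and 156 SCD cells (1.47%, 1.25 to 1.71). Of its 10 leading genes, C1qa, C1qc, C1qb, Fcna and Hmox1 were among the 12 fixed RPM markers, and all 12 had UMIs in both libraries. Of the 3 marginal zone or metallophilic macrophage markers, Cd209b was at 0 in these cells in both libraries, and Siglec1 and Nr1h3 had UMIs. Of the 6 endothelial markers Cdh5, Kdr, Plvap and Emcn were at 0 in both libraries, while Pecam1 was at 189 and 85.7 CPM and Stab2 at 139 and 148 CPM. The RPM-like cells were shallow, with a median of 1332 UMIs in the wild-type and 1544 in the SCD library. Their summed level of 11 neutrophil markers, all of them detected, was 7894 CPM in wild-type and 10861 in SCD, and the median share of such UMIs per cell was 0.130% and 0.960%. Ratios without the cells that held most of these transcripts are given below. Markers of other cell types differed too in the RPM-like cells, with a summed level in wild-type and SCD of 1444 and 838 CPM for the 7 non-classical monocyte markers, 360.3 and 64.3 for the 8 of mature DCs, 123 and 350.0 for the 9 of B cells and 22.6 and 145 for the 5 of neutrophil precursors. The cDC1 markers summed to 1018 and 738 CPM, of which Cadm1 made 837 and 598. Sums were 459 and 414 CPM for pDCs, 137 and 81.0 for cDC2, 61.4 and 148 for classical monocytes and 87.2 and 181 for erythroid precursors. The mature DC markers Ccl22 and Nudt17 were at 0 in both libraries, and the part of these transcripts in the results was not tested. With 1 mouse per group no test across animals was possible, so a difference between the libraries may belong to the animals, the preparations or the genotype, which cannot be told apart. All intervals below are exact 95% intervals that cover counting error only.

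The 10 genes were concentrated in the RPM-like cells of both libraries, although none of them had been used to find these cells. Each was at its highest CPM there among the 15 cell classes (11 named, 4 unnamed), in both libraries. In the wild-type library the ratio over all other kept cells ran from 10.5 for Adgre1 (9.56 to 11.5) to 657 for Mertk (491 to 894), and in the SCD library from 30.7 for Adgre1 (27.2 to 34.6) to 1228 for Marco (872 to 1769). Thus 10 of 10 passed a 4-fold difference in each library, where 5.70% of 13784 genes in wild-type and 10.1% of 13656 in SCD did. The median log2 ratio of the 10 genes (on CPM plus 5) was 6.47 in wild-type and 6.63 in SCD, against -0.10 and 0.16 over all these genes. Clusters are built from the cells' own expression, so these ratios describe the class and are no test of it.

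**Figure D1:**
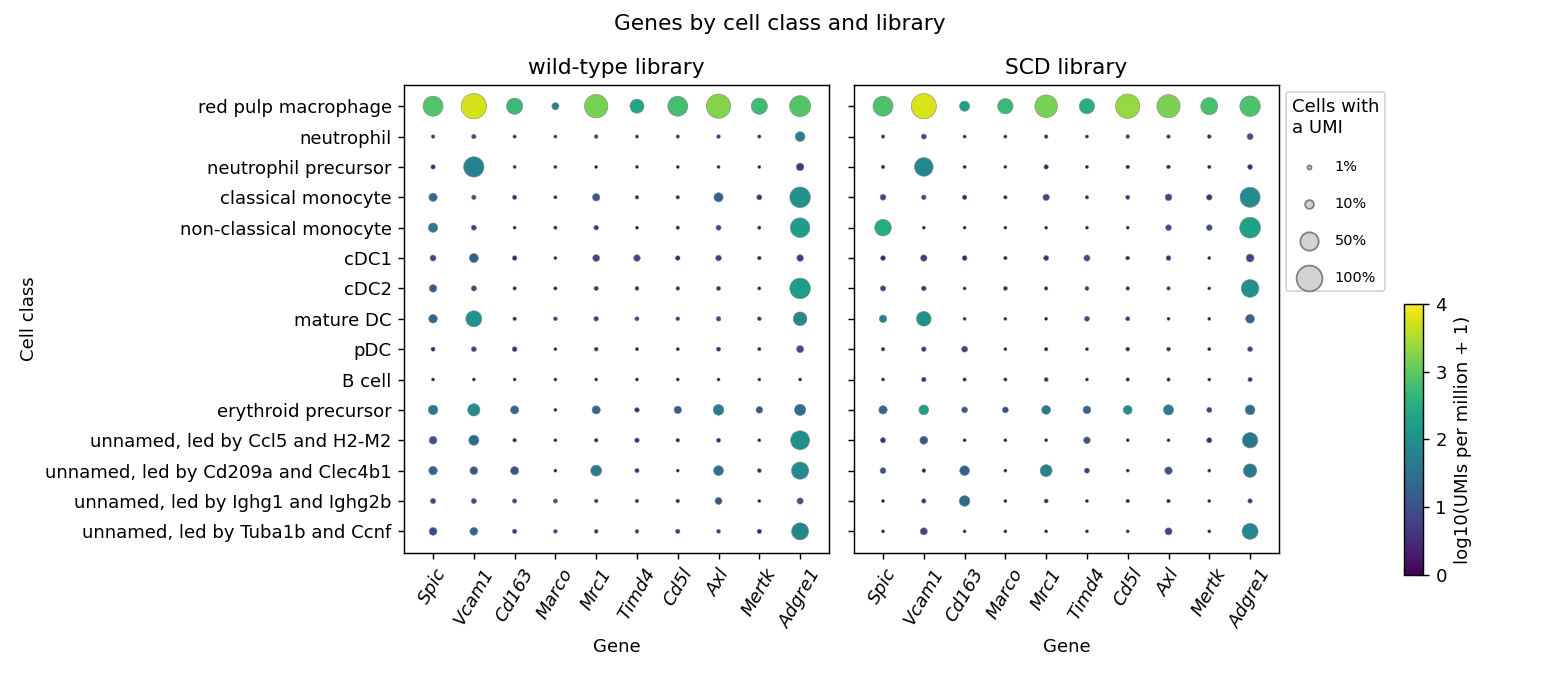
Level of each gene (colour, log10 of CPM plus 1) and share of cells with at least 1 UMI (dot area) in every cell class, with the wild-type library on the left and the SCD library on the right. The red pulp macrophage row is brightest for every gene, and among the named classes dots are seen outside it for Adgre1 in monocytes and cDC2, for Vcam1 in neutrophil precursors and mature DCs, and for Spic in SCD non-classical monocytes.

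How far a gene reached outside the RPM-like cells differed among the genes. Shares here are of the UMIs in kept cells unless all barcodes are named. Mertk was the most restricted in the wild-type library, where the RPM-like cells, 3.05% of the kept cells, held 87.1% of its UMIs. Cd5l followed with 84.2%, Vcam1 with 76.6%, Cd163 with 76.3%, Axl with 74.9%, Mrc1 with 73.3%, Timd4 with 62.7%, Marco with 47.4% and Spic with 43.3%. Adgre1 was the least restricted at 9.75%. In the SCD library Marco had the highest share of kept-cell UMIs, 83.9%, followed by Cd5l with 81.6%. Cd163 held 33.5% of its kept-cell UMIs in the SCD RPM-like cells. Over the UMIs of all SCD barcodes the order turned, with Cd5l highest at 66.5% and Marco next at 60.8%.

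Spic, the regulator of the lineage, had 496 UMIs in the wild-type RPM-like cells, or 801 CPM (732 to 875), and 314 UMIs in the SCD cells, or 748 CPM (667 to 835). The SCD over wild-type ratio of 0.933 (0.808 to 1.08) included 1, and the interval leaves out a change of 2-fold in either direction as far as counting error goes. In the order of named classes the wild-type library placed non-classical monocytes next, at 45.6 CPM (38.4 to 53.9, 139 UMIs), then erythroid precursors at 44.1 (26.9 to 68.1), classical monocytes at 20.4 (17.3 to 24.0), mature DCs at 20 (15.8 to 25) and cDC2 at 12.1 (10.1 to 14.3). Non-classical monocytes and erythroid precursors overlapped in their intervals, as did classical monocytes and mature DCs. Neutrophils were at 1.95 CPM, and B cells at 0 of 179016 UMIs.

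Non-classical monocytes, the patrolling monocytes of the blood, were the class in which Spic differed most between the libraries. They held 139 Spic UMIs over 434 cells in wild-type and 104 over 54 cells in SCD, so the level was 45.6 CPM and 291 CPM (238 to 353), a ratio of 6.38 (4.90 to 8.29). Cells with a Spic UMI made up 12.0% of them in wild-type (52 cells) and 40.7% in SCD (22 cells), at median depths of 6132 and 6014 UMIs. After each cell had been thinned to 500 UMIs the shares were 1.15% (0.375 to 2.67) and 11.1% (4.19 to 22.6), against 0.139% and 0.0464% in neutrophils. Of 8697 genes compared in this class, 2.81% were at least 2-fold higher in SCD with an interval that left out 1. In the SCD cells of this class Vcam1, Cd163, Marco, Mrc1, Timd4 and Cd5l had 0 UMIs, which allows up to 8.40 CPM (3 counts), and of the 12 RPM markers C1qa, C1qb, C1qc, Fcna and Vsig4 were also at 0. The other 7 markers had UMIs, and the summed level of all 12 was 4814 CPM in wild-type and 5226 in SCD. Hmox1 was at 436 and 2101 CPM in these monocytes, Slc40a1 at 40.4 and 185 and Sdc3 at 85.0 and 137, whereas Apoe was at 3003 and 1997, Hpgd at 909 and 616, Selenop at 221 and 140.0 and Trf at 103 and 50.4. Without the 3 cells that held most Spic UMIs in each library the levels were 30.9 and 177 CPM and the ratio was 5.71 (4.06 to 7.99).

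In classical monocytes Spic was at 20.4 CPM (150 UMIs) in wild-type and 5.39 (110 UMIs) in SCD, a ratio of 0.264 (0.204 to 0.339), in a class where 4.30% of 11598 genes were at least 2-fold lower. The libraries filled the 3 clusters of this class unequally, with 586, 43 and 13 wild-type and 942, 348 and 81 SCD cells. In the largest of them Spic was at 23.0 and 7.10 CPM, a ratio of 0.309 (0.233 to 0.407). The second, led by Itga1 and Prdx4 and with the division genes Ccnb2 and Racgap1 among its leading genes, held 0 Spic UMIs in wild-type and 4 in SCD, and the third 4 and 23. With called doublets dropped and the clustering kept, the ratio was 0.261 (0.202 to 0.337). When the cells were also clustered again, the class held 88 wild-type cells in place of 642 and 1243 SCD cells in place of 1371, the levels were 3.99 and 3.29 CPM and the ratio was 0.824 (0.334 to 2.63). Spic in SCD mature DCs (23 UMIs, 45.7 CPM) came mostly from 1 cell with 17 of these UMIs.

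**Figure D2:**
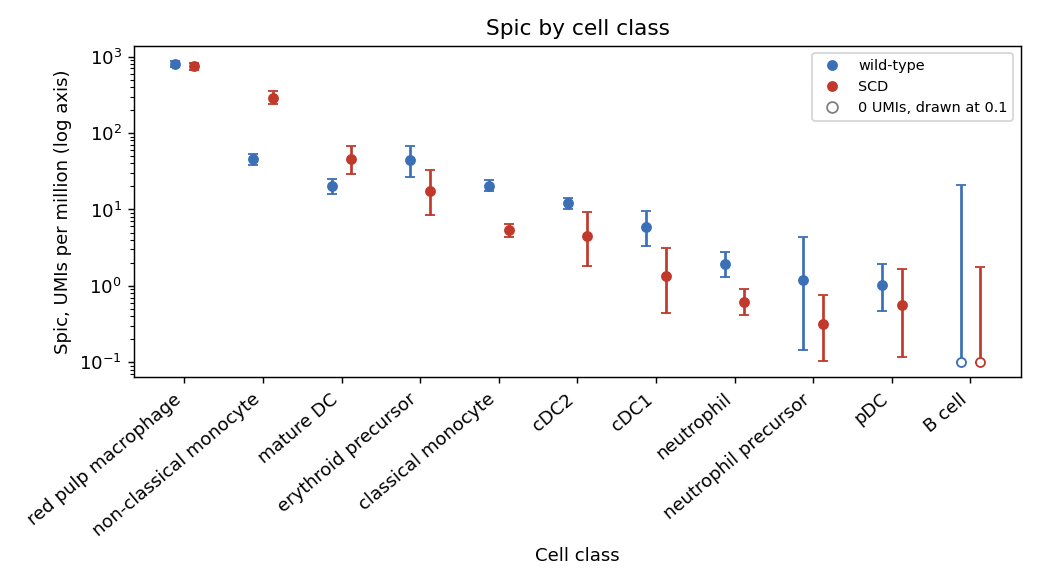
Spic in each named cell class, in CPM on a log axis, for the wild-type (blue) and SCD (red) library, with exact 95% Poisson intervals as bars and open circles where there were 0 UMIs. The 2 libraries overlap in red pulp macrophages at 801 and 748 CPM and lie apart in non-classical monocytes at 45.6 and 291 CPM.

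Vcam1, the integrin ligand used to recognise RPMs by flow cytometry, was detected in nearly every RPM-like cell, in 279 of 287 wild-type and 149 of 156 SCD cells. Its level was 5561 CPM (3442 UMIs) in wild-type and 5982 CPM (2512 UMIs) in SCD, a ratio of 1.08 (1.02 to 1.13). Outside the RPM-like cells it was found in mature DCs, the migratory Ccr7-expressing DCs, at 117 CPM (106 to 128) in wild-type and 109 (82.4 to 142) in SCD. Neutrophil precursors held 58.6 CPM (47.5 to 71.5) and 69.5 (65.4 to 73.7), with a UMI in 42 of 68 wild-type and 377 of 727 SCD cells. Spic was at 1.21 and 0.322 CPM in these precursors, against 20 and 45.7 CPM in mature DCs. Clustering without called doublets redrew this class, and its Vcam1 was then 158 CPM in each library.

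Cd163, the hemoglobin-haptoglobin receptor, was lower in the SCD RPM-like cells. It had 322 UMIs in the wild-type cells, or 520.2 CPM (465 to 580.2), and 69 UMIs in the SCD cells, or 164 CPM (128 to 208), a ratio of 0.316 (0.240 to 0.411). A UMI was seen in 111 of 287 wild-type and 22 of 156 SCD cells. At 500 UMIs per cell the shares were 19.2% (14.8 to 24.2) and 5.13% (2.24 to 9.85), and those in neutrophils were 0.0465% and 0 of 6470 cells, which allows a share of cells with a UMI of up to 0.0464% at this depth. Without thinning 0.108% of the SCD neutrophils (7 cells) had a Cd163 UMI. The 3 SCD cells with most Cd163 UMIs held 36 of the 69, and without the 3 highest cells of each library the log2 ratio moved from -1.63 to -2.32. Outside the RPM-like cells Cd163 did not go 1 way. An unnamed cluster led by Ighg1 and Ighg2b was next in SCD, at 21.9 CPM (43 UMIs in 32 of 202 cells), against 2.93 CPM (3 UMIs) in wild-type. In pDCs the ratio was 2.35 (1.21 to 4.65, 17 and 24 UMIs), and in neutrophils it was 0.160 (0.0593 to 0.397, 16 and 8 UMIs). Haptoglobin, encoded by Hp, was at 85.6 CPM in wild-type and 50 in SCD RPM-like cells, a ratio of 0.584 (0.335 to 0.985) that was not past 2-fold.

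Marco was the gene with the largest ratio among the 10. Wild-type RPM-like cells held 36 UMIs, or 58.2 CPM (40.7 to 80.5), in 18 of 287 cells, and SCD cells 208 UMIs, or 495 CPM (430.3 to 567), in 54 of 156 cells. The ratio was 8.52 (5.96 to 12.5). Thinned to 500 UMIs, a UMI was seen in 2.09% (0.771 to 4.49) of the RPM-like cells in wild-type and in 16.7% (11.2 to 23.5) in SCD, against 0.0232% and 0.0773% in neutrophils. No other named class of either library was above 8.87 CPM. Marco is a marker of marginal zone macrophages as well, and among the 3 fixed markers of those cells Cd209b was at 0, Siglec1 at 46.9 and 78.6 CPM (29 and 33 UMIs) and Nr1h3, which is also on the list of macrophage transcription factors, at 397 and 279 CPM (246 and 117 UMIs).

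Mrc1, the mannose receptor gene, was at 1515 CPM (938 UMIs) in wild-type and 1538 CPM (646 UMIs) in SCD RPM-like cells, a ratio of 1.02 (0.917 to 1.12). Beyond these cells Mrc1 was highest in an unnamed cluster led by Cd209a and Clec4b1, at 45.8 CPM (38.1 to 54.6) in wild-type and 61.7 (50.4 to 74.7) in SCD. The same cluster held Cd163 at 9.53 and 15.3 CPM and Axl at 29.3 and 9.98 CPM, and Cd5l at 0 in both libraries.

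Among the engulfment receptors, Timd4 was at 223 CPM (187 to 263, 138 UMIs) in wild-type and 326 CPM (274 to 386, 137 UMIs) in SCD, a ratio of 1.46 (1.15 to 1.87) that stayed under 2-fold. Among the other classes the highest in wild-type was cDC1, the DCs that take up dead cells, at 6.20 CPM (3.61 to 9.92, 17 UMIs). In SCD it was erythroid precursors at 16.0 CPM (7.30 to 30.3, 9 UMIs), followed by an unnamed cluster led by Ccl5 and H2-M2 at 9.13 (5 UMIs) and cDC1 at 7.32 (4.83 to 10.7, 27 UMIs, 18 of them in 3 cells), and these intervals overlapped. Axl was at 1803 and 1626 CPM (1116 and 683 UMIs), a ratio of 0.902 (0.819 to 0.993). Mertk was at 578 and 652 CPM (358 and 274 UMIs), a ratio of 1.13 (0.960 to 1.32). None of the 3 receptors passed 2-fold, whereas Gas6, the ligand of AXL and MERTK, did. It had 12 UMIs in the wild-type cells, or 19.4 CPM, and 56 in the SCD cells, or 133 CPM, a ratio of 6.88 (3.64 to 14.1).

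Cd5l, the gene of a secreted scavenger receptor-like protein, was higher in SCD. Wild-type RPM-like cells held 390 UMIs, or 630.1 CPM (569 to 696), in 170 of 287 cells, and SCD cells 964 UMIs, or 2295 CPM (2153 to 2445), in 138 of 156 cells. The ratio was 3.64 (3.24 to 4.11). At 500 UMIs per cell 28.2% (23.1 to 33.8) and 66.0% (58.0 to 73.4) of the cells had a UMI, against 0.0465% and 0.0464% in neutrophils. The SCD erythroid precursors carried 105 CPM of Cd5l (59 UMIs), which lay in 8 of 76 cells. These precursors also held Vcam1 at 174 CPM, in 10 cells and with 40 of 98 UMIs in 1 of them.

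Adgre1, the gene of the macrophage antigen F4/80, was at 811 CPM (502 UMIs) in wild-type and 731 CPM (307 UMIs) in SCD RPM-like cells, a ratio of 0.901 (0.779 to 1.04). It was the least specific of the 10 genes. In wild-type it was at 164 CPM in cDC2, 163 in non-classical monocytes and 111 in classical monocytes, and in SCD at 100.2, 185 and 79.8 CPM. The intervals of cDC2 (157 to 172) and non-classical monocytes (149 to 177) overlapped in wild-type. Neutrophils differed between the libraries, with 46.7 CPM (671 UMIs in 4305 cells) in wild-type and 6.82 CPM (306 UMIs in 6470 cells) in SCD, and the neutrophil clusters themselves were filled unequally by the libraries.

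Of the 10 genes, 2 (Marco and Cd5l) were at least 2-fold higher and 1 (Cd163) at least 2-fold lower in SCD RPM-like cells with an interval that left out 1. Over the 6487 genes with at least 20 UMIs in these cells the same rule called 3.24% higher and 5.95% lower. The median log2 ratio of the 10 genes was 0.06, against -0.07 over all these genes. Without the 14 wild-type and 71 SCD cells in which neutrophil markers made up over 1% of UMIs, Cd163 was at 561 and 185 CPM, Marco at 53.9 and 468 CPM and Cd5l at 654 and 2278 CPM, and the 3 ratios were 0.331, 8.68 and 3.48. Kept cells were also named one by one from RPM marker UMIs instead of by cluster, which took 1959 cells in wild-type and 1387 in SCD. Of these, 286 and 156 lay in the RPM-like cluster, and the rest were cells of other classes. The log2 ratio of Cd5l was then under 2-fold (0.68, against 1.86), that of Marco was 1.10 (against 2.99) and that of Cd163 was -2.07 (against -1.63). The other genes lay lower as well in this setting, with Adgre1 at -1.51, Axl at -1.20, Spic at -1.13 and Mrc1 at -1.07, all past 2-fold, and with Vcam1 at -0.87, Mertk at -0.83 and Timd4 at -0.34. Thus 1 gene was past 2-fold higher and 5 were past 2-fold lower in these mixed cells. The share over all genes was computed for the clustered cells only, so this count has no background.

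**Figure D3:**
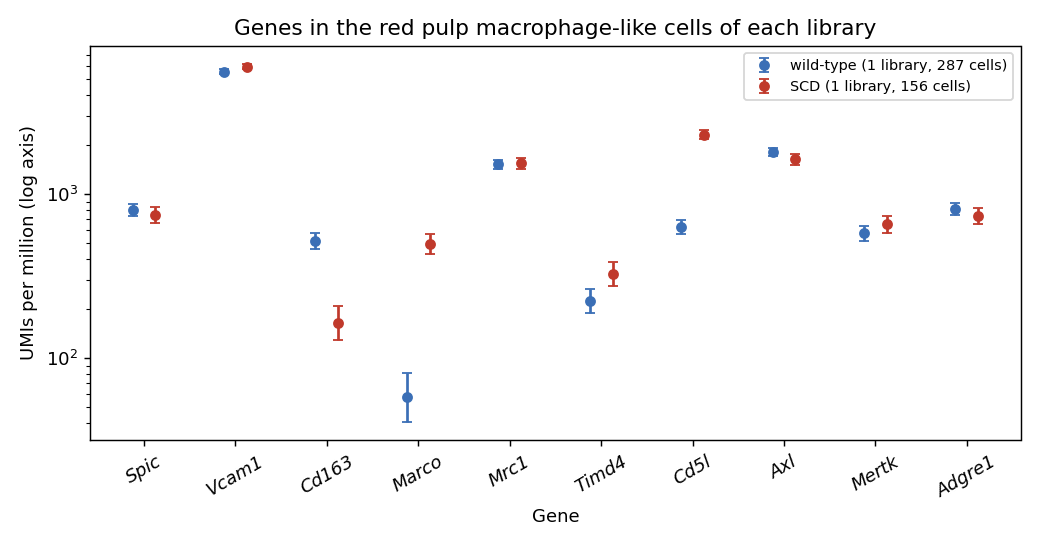
Level of each gene in the red pulp macrophage-like cells, in CPM on a log axis, for the wild-type (blue, 287 cells) and SCD (red, 156 cells) library, with exact 95% Poisson intervals as bars. The points of Cd163, Marco and Cd5l lie clearly apart, at 520.2 and 164, 58.2 and 495, and 630.1 and 2295 CPM.

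The RPM-like cells differed widely in depth, so the genes were also read in cells with under 3000 UMIs (239 wild-type and 124 SCD cells) and with at least 3000 UMIs (48 and 32 cells), a limit chosen after the data were seen. Marco was higher in SCD in both, with a ratio of 7.0 (4.60 to 11.0) in the shallow and 15 (7.30 to 35.7) in the deep cells, the latter with 8 UMIs in wild-type. Cd5l gave 3.04 (2.59 to 3.58) and 4.60 (3.83 to 5.56), and Cd163 gave 0.184 (0.102 to 0.308) and 0.391 (0.282 to 0.535). Vcam1, Mrc1 and Axl were on different sides of 1, with 0.768, 0.720 and 0.727 in the shallow and 1.38, 1.32 and 1.14 in the deep cells, the last with an interval of 0.994 to 1.31. Timd4 reached 1.95 (1.37 to 2.79) in the deep cells. Mertk was higher in the deep cells of each library. It was at 837 CPM in deep and 346 in shallow wild-type cells, a ratio of 2.42 (1.93 to 3.05), and at 906 and 340.3 CPM in SCD, a ratio of 2.66 (2.00 to 3.58). Cd163 was 2.69 times (1.51 to 5.03) higher in the deep SCD cells and 1.26 times (1.01 to 1.58) in the deep wild-type cells. Marco was lower in the deep cells, with a deep over shallow ratio of 0.319 (0.126 to 0.718) in wild-type and 0.682 (0.513 to 0.904) in SCD.

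**Figure D4:**
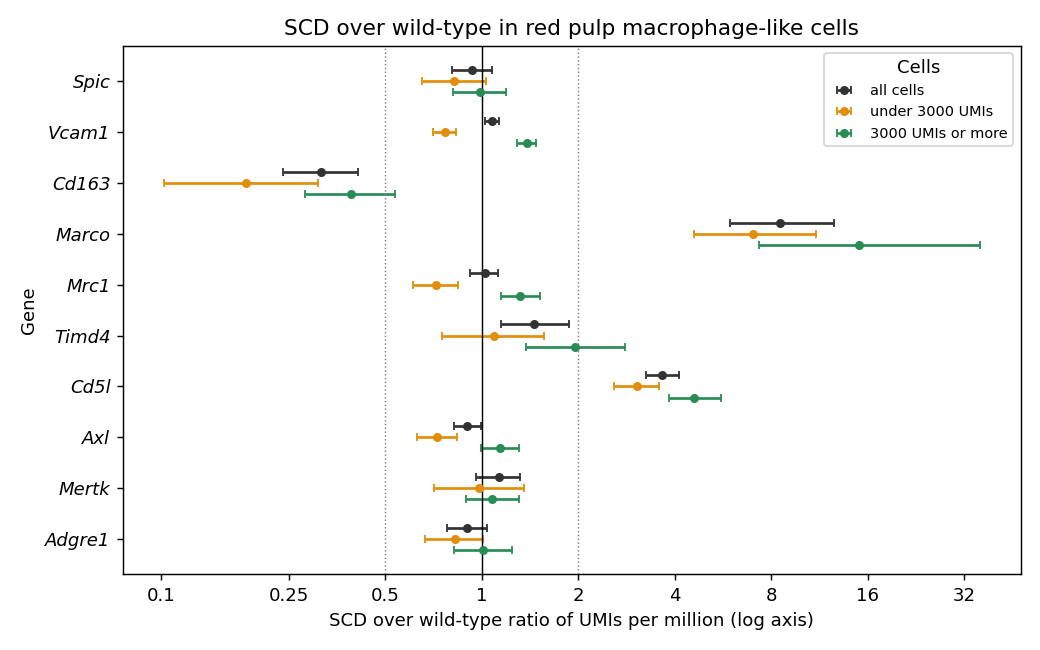
SCD over wild-type ratio of CPM in red pulp macrophage-like cells on a log axis, for all cells (black), cells with under 3000 UMIs (orange) and cells with 3000 UMIs or more (green), with exact 95% intervals as bars and dotted lines at 2-fold. Marco and Cd5l lie above and Cd163 below 1 at both depths, while Vcam1 and Mrc1 cross from below to above 1.

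Single RPM-like cells carried several of the genes at once. With each cell thinned to 500 UMIs, the median cell had a UMI of 3 of the 10 genes in each library, and a UMI of at least 2 genes was found in 90.6% of the cells in wild-type (260 of 287) and 90.4% in SCD (141 of 156). In neutrophils at the same depth, 0.209% (9 of 4305) and 0.0464% (3 of 6470) had at least 2. At least 5 genes were found in 53 and 34 RPM-like cells. Unthinned, the median was 6 genes in each library, and 2 and 5 cells had all 10.

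Other lists of genes were read in the RPM-like cells against the 3.24% higher and 5.95% lower of all genes. Of 16 other macrophage transcription factor genes 12 had at least 20 UMIs, and 0 of these were past 2-fold in either direction (median log2 ratio -0.12), a count that at this background says little of 12 genes. Runx3, under that minimum, had 17 UMIs in wild-type and 0 in SCD. The highest were Pparg at 88.9 and 136 CPM (ratio 1.53, 1.04 to 2.25) and Irf8 at 441 and 491 CPM, and the lowest were Bach1, the heme-sensing repressor, at 63.0 and 35.7 CPM (0.567, 0.290 to 1.05) and Nr1h3, which encodes LXR alpha, at 397 and 279 CPM (0.701, 0.558 to 0.877). Of 20 other scavenger and engulfment receptor genes 10 could be compared, with 2 higher, 1 lower and a median of 0.35. Cd36 was at 21 and 54.8 CPM (2.61, 1.27 to 5.60), Clec4n at 698 and 1498 CPM (2.15, 1.90 to 2.43), Cd300lf at 103 and 45.2 CPM (0.438, 0.248 to 0.740) and Scarb1 at 144 and 112 CPM. Under the minimum, Msr1 had 2 UMIs in wild-type and 17 in SCD, Colec12 had 1 and 8, and Havcr2 had 13 and 1.

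Of 12 genes of ligands and binding partners 7 could be compared, with 1 higher (Gas6, above) and 1 lower, and the median was -0.72. The lower one was Itga4, a subunit of the integrin that binds VCAM-1, at 163 and 52.4 CPM (0.321, 0.193 to 0.513). Csf1r, the M-CSF receptor gene, was at 2404 and 1305 CPM (0.543, 0.491 to 0.599), short of 2-fold, and Itgb1 at 194 and 171 CPM. All 12 genes of iron and heme handling could be compared, and 0 passed 2-fold (median 0.40). Hmox1, the heme oxygenase, was at 4959.7 and 9303 CPM (1.88, 1.79 to 1.97) and Tfrc at 14.5 and 28.6 CPM (1.97, 0.760 to 5.28). The lowest were Hebp1 at 843 and 574 CPM (0.680, 0.582 to 0.794) and Trf at 2441 and 1991 CPM (0.815, 0.749 to 0.888).

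The genes with the pattern most like each of the 10 were found by Pearson correlation of log2(CPM plus 5) over 22 points, the 11 named classes in each library, among 10116 genes. The points share libraries and the RPM-like class stands far from the rest in all of them, so the values are a description. For Spic they were Nr1h3 (0.952), Ms4a7 (0.947), Acp2 (0.944), Tmem26 (0.917) and Lgmn (0.914). Marco was matched by Gas6 and Prss29 (0.990 each) and Chp2 (0.983), and Cd5l by Fcna (0.994), Cela1 (0.989) and C1qb (0.985). Cd163 was matched by Col14a1 (0.986), C6 (0.978) and Ccr3 (0.977). Mrc1 went with C1qa (0.991), C1qc (0.988) and C1qb (0.985), Axl with Abcc3 (0.989), C1qa (0.984) and C1qc (0.980), and Vcam1 with Samd4 (0.943), Kcna2 (0.921) and C1qb (0.899). Timd4 was matched by Slc16a9 (0.970), Ccdc148 (0.968) and Ccn5 (0.967), Mertk by Gpd1 (0.991), Vstm4 (0.984) and Mrap (0.983), and Adgre1 by Pgap1 (0.948), Clec4a1 (0.919) and Gm44860 (0.912).

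A part of the UMIs of these genes lay in cells outside the limits. Cells with under 500 genes held 8.78% of all Vcam1 UMIs in wild-type and 3.98% in SCD, and 20.2% and 13.2% of those of Marco. In these cells Cd163 was at 85.1 CPM (64.9 to 109.5) in wild-type and 12.6 (5.05 to 25.9) in SCD, Marco at 28.4 (17.3 to 43.8) and 80.8 (58.9 to 108), and Cd5l at 108 (84.9 to 135) and 235 (197 to 279), in the same order of the libraries as in the RPM-like cells. The other 7 genes were all lower in SCD there, among them Vcam1 at 661 and 359 CPM, Axl at 268 and 126, Mrc1 at 206 and 119 and Mertk at 25.5 and 10.8, with intervals that overlapped for Spic, Timd4, Mertk and Adgre1. Cells with over 5000 genes held 226 of the 452 Cd163 UMIs of the SCD library, spread over 172 of 1436 cells, and 90 of 585 in wild-type, over 71 of 517 cells. The Cd163 level in these large cells was 2.69 CPM (2.35 to 3.06) in SCD and 2.71 (2.18 to 3.34) in wild-type.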

How the data were processed

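The deposited values were raw UMI counts per gene and cell of 2 libraries, with no normalization, made by the authors from 10x Genomics 3′ reads. The submitters' processing notes name Cell Ranger 4.0.0, Seurat 3.2.3, Scanpy 1.6.0, R 4.4 and the build GRCm38.p6, and the deposited totals per cell started at 500 UMIs. Of 26124 gene identifiers 26090 were found in GENCODE M21. Groups came from the labels, with 1 library each, so no test, p-value or standard error was computed. The members and gene lists were chosen with earlier results of these data known.

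The kept cells had 500 to 5000 genes, less than 15% of UMIs from mitochondrial and less than 30% from ribosomal protein genes. For clustering, genes seen in at least 20 of these cells (14562) were used. Size factors were from scran 1.30.0 (R 4.3.3), and log values were reduced to 30 principal components on 2000 variable genes without the 10 members, and clustered (15 neighbours, Leiden resolution 1, scanpy 1.11.5, leidenalg 0.10.2, Python 3.11.15) with no batch correction. A cluster was named from fixed markers, none of them a member, when at least 3 were detected, at least 1 was among its 10 leading genes, no other class had more there, and its score exceeded the next by 0.05. Clusters with 3 or more immunoglobulin genes among the leading genes stayed unnamed unless they were B cell-like. The scoring rules were set with the clusters in view, and the names are rebuilt here. Scrublet, run per library with 8% expected doublets because no threshold was found for the SCD library at the default rate, called 357 wild-type (3.79%) and 205 SCD cells (1.93%). They stayed in the reported values and were left out in an alternative.

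Per class and library, summed UMIs were given as CPM (per 1000000 UMIs). Exact Poisson, Clopper-Pearson and conditional binomial 95% intervals cover counting error only. Log2 ratios used a pseudocount of 5 CPM. A gene was called past 2-fold (libraries) or 4-fold (classes) when the interval left out 1, among genes with at least 20 UMIs in the sums. For shares, cells were thinned to 500 UMIs, and no RPM-like cell was left out. Where a count was 0, 3 counts set the upper limit. The computation of ratios and intervals was checked on simulated Poisson sums. These hold no spread between cells or animals, so the check says nothing of that spread. Named genes were the 10 members in full, the 2 highest and 2 lowest of each other list, and the 5 (Spic) or 3 (others) genes most alike in pattern among those with a mean of at least 5 CPM and at least 50 UMIs. Some further genes of the lists were named after the values were seen. The ETS core GGAA was added after the longer motifs had no match. Alternatives covered clustering, filters, doublets, naming cell by cell, pseudocount, scaling, depth and thinning.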

Additional observations from a re-analysis of the deposited data

Results flagged for a closer look

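Spic moved in opposite directions between the libraries in the 2 kinds of monocyte, with a log2 ratio (SCD over wild-type) of 2.55 in non-classical and -1.29 in classical monocytes. The difference between these cell types was not tested, since each group had 1 library. With called doublets removed and the cells clustered again, the classical log2 ratio was -0.12 and the non-classical one 2.57, and with the doublets dropped from the class as drawn the classical one was -1.32.

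Cells with over 5000 genes lay outside the limits of the reported classes and were clustered in 1 alternative. Marco and Cd5l were higher in these cells in SCD than in the control. Marco was at 0.464 CPM (0.330 to 0.634, 39 UMIs in 13 of 1436 cells) in SCD and 0.0905 CPM (0.0187 to 0.264, 3 UMIs) in wild-type. Cd5l was at 1.36 CPM (1.12 to 1.63, 114 UMIs in 31 cells) and 0.633 CPM (0.392 to 0.968, 21 UMIs). Both levels were far under those of the RPM-like cells.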

How the results depend on the processing

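No paired analysis was possible because only 1 library was made per genotype. Of 694 values under alternatives 488 stayed within the counting interval of the reported value, 206 moved out of it and 0 of the called values changed direction. For SCD over wild-type in RPM-like cells, Marco ran from 0.60 to 3.68, Cd5l from 0.43 to 2.19 and Cd163 from -2.32 to -1.34 on the log2 scale over 15 alternatives, while the other genes crossed 0 except Spic (-1.13 to -0.02). The lowest Marco and Cd5l values, both under 2-fold, came from naming cells one by one in all barcodes with no filter, which took 2377 wild-type and 1976 SCD barcodes of all kinds, 286 and 156 of them RPM-like. With kept cells named one by one, Cd5l was also under 2-fold at 0.68 and Marco was at 1.10. That setting took 1959 wild-type and 1387 SCD cells, 286 and 156 of them RPM-like. The median log2 ratio of the 10 genes was 0.06, and it moved to -0.97 with kept cells named one by one, to -1.02 with all barcodes named so, and to 0.30 with only cells of at least 3000 UMIs (the last 2 chosen after seeing the data). The share of kept cells was 20.8% in wild-type and 13% in SCD when cells were named one by one. The median log2 ratio over other cells was then 3.12 and 2.23, and it was 7.72 and 8.29 with a pseudocount of 1 CPM and 4.79 and 5.02 with 20 CPM. Median-of-ratios scaling shifted all genes of the SCD RPM-like cells by 0.56 against other cells and gave a median of 6.31 there. The median share of RPM-like cells with a UMI was 29.6% in wild-type and 25% in SCD after thinning to 500 UMIs, 45.4% and 43.0% after thinning to 1000, and 59.6% and 61.2% with no thinning. For Spic in non-classical monocytes the log2 ratio stayed between 2.34 and 2.98 over 7 alternatives chosen after seeing the data. With no minimum of UMIs, 2.60% of genes were called higher and 3.91% lower in SCD. The depth limits Marco in wild-type (36 UMIs) and Cd163 in SCD (69 UMIs), and most sums of 0 outside the RPM-like cells allow several CPM.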
